A study of Mus musculus with 6 samples.

Results

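Cathepsins and legumain are the proteases of the lysosome, and they were followed here in the pancreas of young mice with and without a Prox1 transgene. The group was defined by name as Ctsb, Ctsc, Ctsd, Ctsh, Ctsk, Ctsl, Ctss, Ctsz, Lgmn and the inhibitor gene Cst3. All 10 genes were measured, by 20 of the 45037 probe sets of the arrays that were not controls. The study profiled 6 samples of whole pancreas from NMRI mice at postnatal day 15, with 1 array each. The 3 Prox1-OE samples carried the alleles Jojo-Prox1 and Ngn3-cre, and the 3 controls carried Ngn3-cre alone, so the cre driver was shared by both groups. Ngn3-cre acts in the progenitors of endocrine cells, whereas whole pancreas is mostly exocrine tissue. The labels do not tie samples to animals, so the replicates may be technical and p-values cover the spread between arrays. The question of the series was what raised Prox1, a homeobox transcription factor, does to expression in beta cells.

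Most cathepsins are cysteine proteases of the papain family, made as inactive precursors and matured in acidic endosomes and lysosomes. Cathepsin D is an aspartic protease, and legumain cuts after asparagine and helps to mature other cathepsins. In acinar cells cathepsin B can activate trypsinogen and cathepsin L can degrade it, while in antigen-presenting cells cathepsin S cleaves the invariant chain from MHC class II molecules.

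The arrays had nearly equal medians, from 4.37 to 4.42 on the log2 scale, and correlated pairwise at 0.988 to 0.994. Markers of acinar cells, the main exocrine cells, were bright, with a list mean of 13.13 to 13.26 over all 6 arrays. RNA degradation, read as the 3' minus 5' signal of Gapdh and beta-actin controls, averaged 0.93 with the transgene (SD 0.01, n = 3) and 0.95 without it (SD 0.04). Prox1 itself differed by 0.06 ± 0.20 (SE) at its brightest probe set (limma adjusted p = 0.971), so a rise of Prox1 was not seen. Its probe sets may lie outside the transgene's transcript, which was not examined, so this value may not check the labels. Prox1-OE replicate 1 stood apart in B cell markers: its mean for a list of 10 measured ones was 1.09 above control, against 0.15 and 0.37 on Prox1-OE replicates 2 and 3. Over all genes, limma's array weights were lowest for control replicate 3 (0.68), then Prox1-OE replicate 1 (0.84), and 1.10 to 1.26 for the others. Many member differences and marker lists are given with and without Prox1-OE replicate 1. Values given only with all arrays may also depend on it or on another array.

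The proteases did not move as a block. Ctss was 2.83-fold higher in Prox1-OE pancreas, Lgmn 1.54-fold, Ctsk 1.40-fold, Ctsh 1.30-fold and Ctsz 1.28-fold, while Ctsl was 1.28-fold lower. The means of Ctsb, Ctsc, Ctsd and Cst3 lay within 0.05 of control on the log2 scale. None of the 10 genes passed limma's adjusted p of 0.05 over 18193 genes, where 0.0275% of all genes passed, and the lowest adjusted p of a member was 0.690. At an unadjusted p under 0.05, 4 members were higher (2.94% of all genes) and 1 was lower (3.70%). The Prox1-OE arrays lay above all controls for 4 members (5.05% of all genes) and below them for 1 (7.02%). The median difference was 0.19 over the members and -0.01 over all genes. Of all genes, 46.2% had a positive difference, the share to set beside every count of positive or negative genes that follows.

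**Figure D1:**
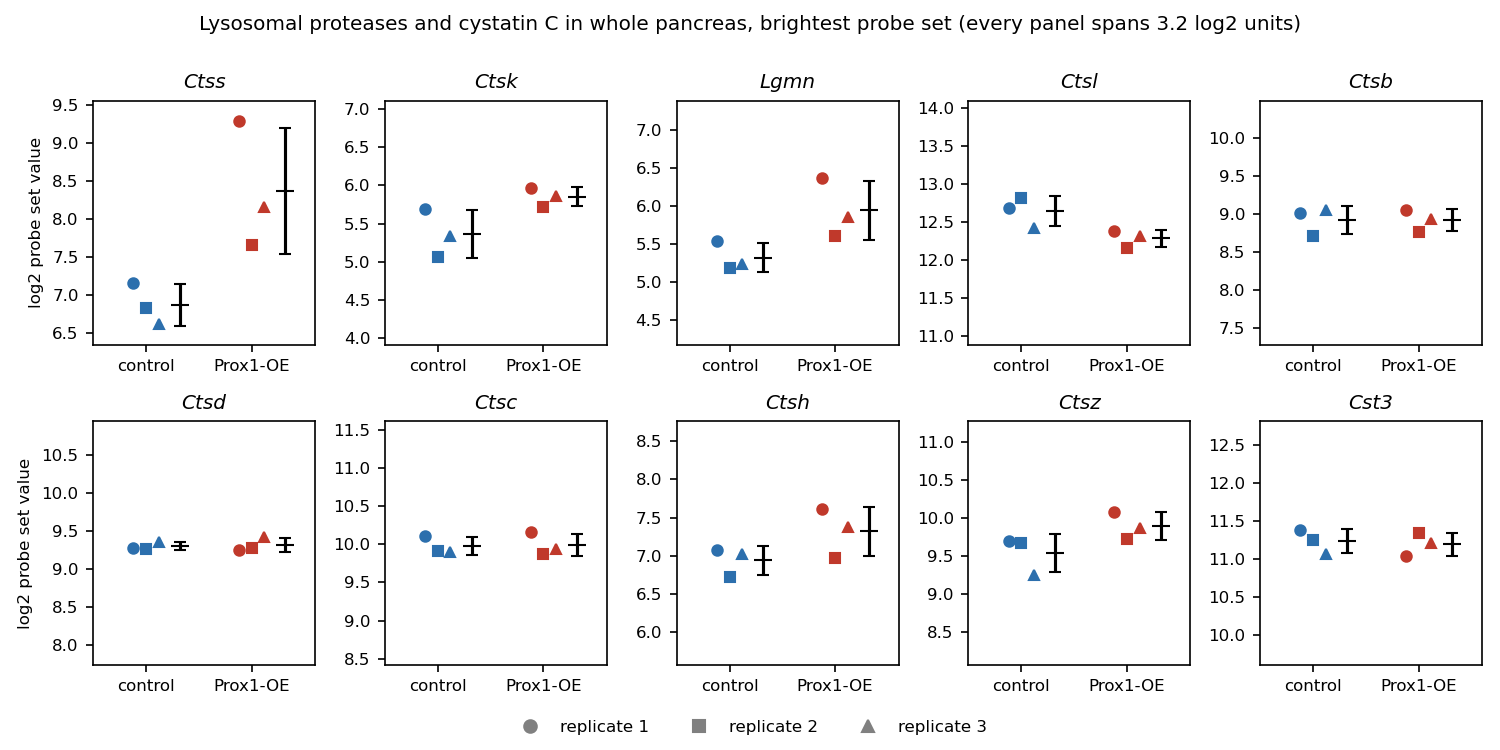
Log2 probe set value of each of the 10 genes on each array, control in blue and Prox1-OE in red, with symbols for replicate numbers and black bars for mean ± SD (n = 3). Every panel spans the same number of log2 units: Ctss separates by 0.51 between the nearest arrays of the groups, and Ctsb and Ctsd overlap.

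The stretches printed next lie before and at the start of the gene with the largest difference, Ctss, and of Ctsd and Ctsl, a pair of broadly expressed genes. They are from RefSeq on GRCm38.p6, 5' to 3' along each gene's own strand, with motif matches in capitals. Ctss is chr3:95526646-95526805 on the plus strand and ends 20 bases after the start. Ctsd is chr7:142387898-142388077 and Ctsl is chr13:64370651-64370770, both on the minus strand and wholly before the start.
Ctss: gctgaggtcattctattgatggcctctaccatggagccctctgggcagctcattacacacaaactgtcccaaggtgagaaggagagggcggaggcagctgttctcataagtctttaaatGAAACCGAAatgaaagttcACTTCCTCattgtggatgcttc
Ctsd: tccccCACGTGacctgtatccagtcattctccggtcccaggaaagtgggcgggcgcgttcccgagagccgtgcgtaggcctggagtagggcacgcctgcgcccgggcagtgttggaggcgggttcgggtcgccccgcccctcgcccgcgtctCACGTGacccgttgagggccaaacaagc
Ctsl: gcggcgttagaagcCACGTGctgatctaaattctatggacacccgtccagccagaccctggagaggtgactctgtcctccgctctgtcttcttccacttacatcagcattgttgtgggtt

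The letters of 3 motifs were searched on both strands in windows of 250 bases before to 50 after each start. CACGTG is the palindromic core of the E-box bound by TFEB, a regulator of lysosomal genes, and by many other factors. GAGGAAGT is a site of PU.1, a factor of myeloid and B cells, and GAAANNGAA is a site of interferon regulatory factors. Of the 32851 windows in the RefSeq table, 7.15% held CACGTG, 3.2% GAGGAAGT and 8.56% GAAANNGAA. The RefSeq table held windows for 8 of the 10 members, and Ctsb and Ctsh were not among them. A motif was found in 5 of the 8. Ctss held the interferon regulatory factor letters at -21 to -13 and the PU.1 letters, on the opposite strand, at -2 to 6, where the start is position 1 and no position is 0. These matches did not overlap each other. Ctsd held CACGTG at -245 and at -98, Ctsl at -236, and Lgmn in 1 of its 2 windows at -49. Ctsc held the PU.1 letters at -151, and Ctsk, Ctsz and Cst3 held none of the motifs. A match describes the letters and does not show binding.

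Ctss, the cathepsin made mainly by leukocytes, had the largest difference of the members. It read 9.29, 7.67 and 8.16 on Prox1-OE replicates 1, 2 and 3, and 7.16, 6.84 and 6.62 on control replicates 1, 2 and 3. The groups did not overlap, with 0.51 between the nearest arrays, and Prox1-OE replicate 1 was far above the rest. The log2 difference was 1.50 ± 0.36 (SE; interval 0.67 to 2.33, limma adjusted p = 0.690). Without Prox1-OE replicate 1 it was 1.04 ± 0.20 (adjusted p = 0.917). In bulk tissue, more cells of a type cannot be told apart from more RNA per cell, here and for every gene that follows.

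Ctsb encodes cathepsin B, an endopeptidase found in nearly all cells. Its brightest probe set read 9.06, 8.77 and 8.93 in Prox1-OE and 9.01, 8.72 and 9.06 in control. The groups covered the same range, and the difference was -0.01 ± 0.12 (interval -0.29 to 0.27). Of its 5 probe sets, 4 overlapped between the groups, with differences from -0.15 to 0.05. The other, 1417492_at, read 6.29, 5.76 and 5.93 in Prox1-OE and 5.73, 5.66 and 5.63 in control, a difference of 0.32 ± 0.13 (limma adjusted p = 0.801 over all probe sets). Without Prox1-OE replicate 1 this difference was 0.17, and its interval with all arrays, 0.01 to 0.62, overlapped that of the brightest probe set. The probe sets of Ctsb thus did not all read alike, and the 2 brightest overlapped between the groups.

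Ctsd, of the aspartic protease cathepsin D, was the steadiest member. It read 9.26, 9.28 and 9.43 in Prox1-OE and 9.28, 9.26 and 9.36 in control. The groups overlapped, with a difference of 0.02 ± 0.09 and an interval from -0.18 to 0.23.

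Ctsl, of the endopeptidase cathepsin L, was the only member with an unadjusted p under 0.05 in the lower direction. It read 12.38, 12.17 and 12.31 in Prox1-OE and 12.69, 12.82 and 12.43 in control. All Prox1-OE arrays lay below all controls, and the nearest, Prox1-OE replicate 1 and control replicate 3, were 0.04 apart. The log2 difference was -0.36 ± 0.12 (interval -0.63 to -0.08, limma adjusted p = 0.691). Its unadjusted p was no longer under 0.05 without Prox1-OE replicate 2 (-0.29 ± 0.14), control replicate 1 (-0.33 ± 0.14) or control replicate 2 (-0.27 ± 0.13). Without control replicate 3 the difference was -0.46 ± 0.11.

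The other probe set of Ctsl, 1457724_at, was dim, at percentile 45.9 of all probe sets. It read 3.69, 4.02 and 4.06 in Prox1-OE and 4.70, 4.49 and 4.14 in control. These groups also did not overlap, and the difference was -0.52 ± 0.16 (limma adjusted p = 0.777 over all probe sets). Both probe sets of Ctsl thus lay lower on every Prox1-OE array.

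Markers of beta cells, the cells the series asked about, lay lower on the same arrays. All 10 measured genes had a negative difference, with a median of -0.71, and 1 passed limma's adjusted p of 0.05, the granule protein gene Chga (-1.51 ± 0.14). Its limma adjusted p was 0.022 with all arrays, 0.049 without Prox1-OE replicate 2 and 0.044 without control replicate 3, and lay from 0.076 to 0.180 without any other single array. Averaged over these genes, the log2 value minus that of the controls was -0.65, -0.75 and -0.88 on Prox1-OE replicates 1, 2 and 3 and 0.23, 0.02 and -0.25 on control replicates 1, 2 and 3. Ctsl over control was -0.26, -0.48 and -0.33 in Prox1-OE and 0.04, 0.17 and -0.21 in control. Control replicate 3 was the lowest control of both, and Prox1-OE replicate 1 was the highest Prox1-OE array of both. Within each group the remaining arrays were ordered differently. The highest control was replicate 1 for the beta cell genes and replicate 2 for Ctsl. The lowest Prox1-OE array was replicate 3 for the beta cell genes and replicate 2 for Ctsl. All 10 acinar genes were also negative, with a median of -0.06 and none at an unadjusted p under 0.05. The part of these markers in the lower Ctsl was not tested.

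To ask whether Ctss differed more than the broadly expressed members, its log2 value was set against theirs within each array. Ctss minus Ctsb was 0.23, -1.10 and -0.77 in Prox1-OE and -1.85, -1.88 and -2.44 in control, so that this contrast differed by 1.51 between the groups. For Ctss minus Ctsd the values were 0.03, -1.61 and -1.26 against -2.12, -2.42 and -2.74, a difference of 1.48. For Ctss minus Ctsl they were -3.10, -4.50 and -4.15 against -5.52, -5.98 and -5.81, a difference of 1.86. No contrast overlapped between the groups. Each had an exact two-sided permutation p = 0.1 (0.1 also after adjustment over the 3 pairs), the smallest that 3 against 3 arrays allow, so none can pass 0.05. Without Prox1-OE replicate 1 the differences were 1.12, 0.99 and 1.45. A value of these contrasts is no ratio of transcripts, since different probe sets were compared, and only its change between groups has a meaning.

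Ctsk, of cathepsin K, the collagen-degrading protease of osteoclasts, is the next coding gene to Ctss on chromosome 3 in RefSeq. It read 5.96, 5.72 and 5.87 in Prox1-OE and 5.69, 5.05 and 5.34 in control. The groups were 0.03 apart, with control replicate 1 just under Prox1-OE replicate 2. The difference was 0.49 ± 0.16 (interval 0.12 to 0.85, limma adjusted p = 0.690). It was 0.43 ± 0.18 without Prox1-OE replicate 1, and 0.33 ± 0.14 without control replicate 2, the lowest array. Of 8 osteoclast genes, 2 had a positive difference and 6 read below the median probe set. Their mean was -0.17 to 0.04 over control on the Prox1-OE arrays and -0.03 to 0.03 on the controls, and the acid phosphatase Acp5 differed by 0.55 ± 0.23 (0.29 ± 0.17 without Prox1-OE replicate 1) and the fusion protein Dcstamp by -0.25 ± 0.10.

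Lgmn, of legumain, read 6.37, 5.60 and 5.86 in Prox1-OE and 5.54, 5.19 and 5.24 in control. The groups were 0.07 apart, and Prox1-OE replicate 1 was highest. The difference was 0.62 ± 0.19 (interval 0.18 to 1.06, limma adjusted p = 0.690), and 0.41 ± 0.14 without Prox1-OE replicate 1.

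Among the exopeptidases, which trim protein ends, Ctsz and Ctsh had higher means in Prox1-OE and Ctsc a mean near control. Ctsz, of the carboxypeptidase cathepsin X, read 10.08, 9.73 and 9.87 in Prox1-OE and 9.70, 9.67 and 9.26 in control. The groups were 0.03 apart and the difference was 0.35 ± 0.15 (interval 0.01 to 0.69, limma adjusted p = 0.740). It was 0.21 ± 0.12 without control replicate 3, the lowest array, and 0.26 ± 0.15 without Prox1-OE replicate 1. The other probe sets of Ctsz differed by 0.29 (1417870_x_at, no overlap) and 0.23 (1417869_s_at, overlap), and both can bind related transcripts.

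Ctsh, of the aminopeptidase cathepsin H, read 7.61, 6.97 and 7.38 in Prox1-OE and 7.07, 6.72 and 7.03 in control. Prox1-OE replicate 2 lay among the controls. The difference was 0.38 ± 0.17 (interval -0.01 to 0.78, limma adjusted p = 0.753), and 0.24 ± 0.16 without Prox1-OE replicate 1. A second probe set, 1443814_x_at, did not overlap between the groups and differed by 0.44 ± 0.15 (adjusted p = 0.777 over all probe sets). It too can bind related transcripts. Leaving out Prox1-OE replicate 2, Ctsh differed by 0.56 ± 0.14.

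Ctsc encodes dipeptidyl peptidase I, which activates the granule serine proteases of neutrophils and cytotoxic lymphocytes. It read 10.16, 9.88 and 9.94 in Prox1-OE and 10.12, 9.91 and 9.90 in control, a difference of 0.01 ± 0.11 (interval -0.24 to 0.26). In both groups replicate 1 was the highest array. The other 2 probe sets of Ctsc read below the median probe set and overlapped between the groups, with differences of 0.10 and -0.04.

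Cst3, of cystatin C, the secreted inhibitor of cysteine cathepsins, read 11.04, 11.34 and 11.21 in Prox1-OE and 11.38, 11.25 and 11.07 in control. The groups overlapped and the difference was -0.04 ± 0.12 (interval -0.31 to 0.23). Prox1-OE replicate 1, the array with the highest Ctss, had the lowest Cst3, but control replicate 3, with the lowest Ctss, had the next lowest Cst3.

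**Figure D2:**
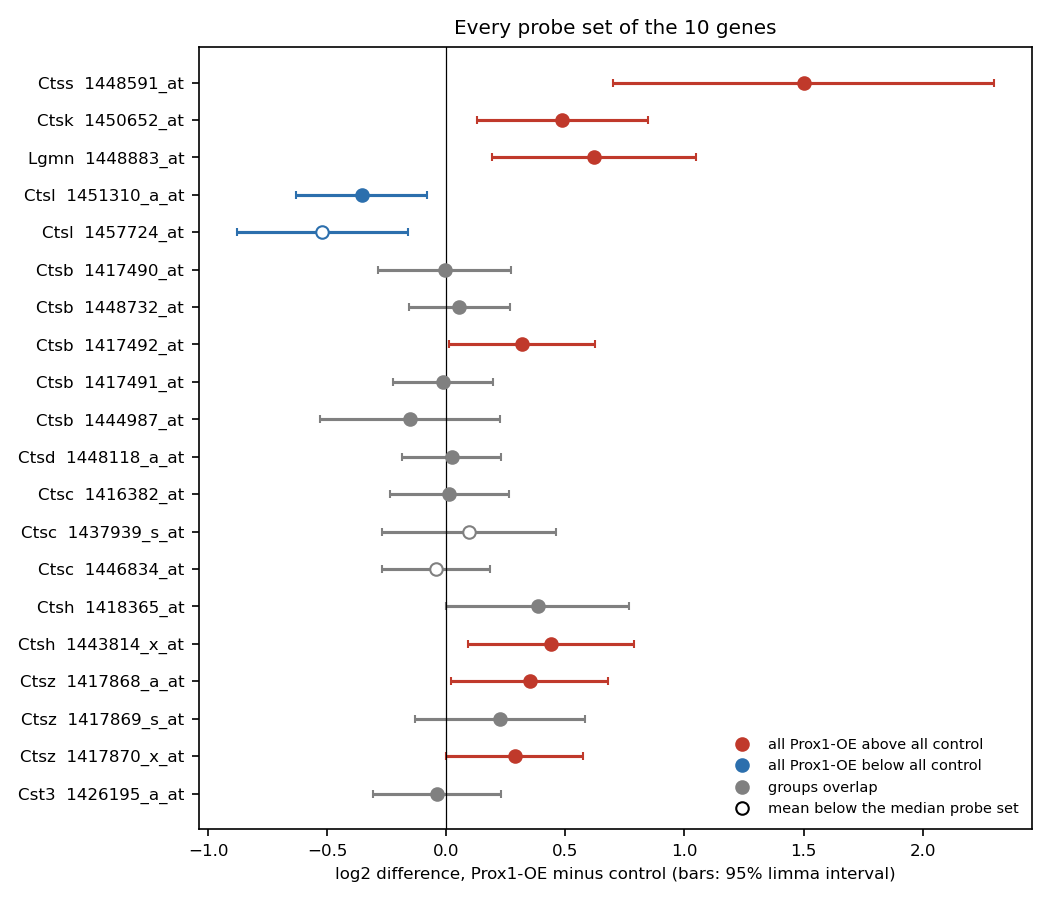
Log2 difference, Prox1-OE minus control, of every probe set of the 10 genes, with 95% limma intervals; colour shows whether the groups overlap and open symbols mark probe sets below the median. Of 20 probe sets, 7 lie above all controls on every Prox1-OE array and 2, both of Ctsl, lie below.

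Of the 20 probe sets, 13 had a positive and 7 a negative difference. None passed limma's adjusted p of 0.05 (0.0111% of all probe sets did), and the lowest adjusted p was 0.772. At an unadjusted p under 0.05, 8 were higher (2.65% of all probe sets) and 2 lower (3.50%). The groups did not overlap for 7 in the higher direction (4.60%) and 2 in the lower (6.80%). Since probe sets of a gene share its transcripts, they are not independent.

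The medians of the other lysosomal lists lay near 0. Of 33 measured hydrolases and accessory proteins, of 38 listed, 18 were positive, with a median difference of 0.01, and none passed over all genes. At an unadjusted p under 0.05, 4 were higher (2.94% of all genes) and 1 was lower (3.70%). Without Prox1-OE replicate 1 there were 0 in either direction, and without Prox1-OE replicate 3 there was 1 in each. The 4 with the smallest p were Gla, an alpha-galactosidase (0.32 ± 0.12), Psap, the precursor of lipid-activator saposins (0.41 ± 0.16), Gaa, the acid alpha-glucosidase (-0.22 ± 0.09), and Lipa, the acid lipase (0.28 ± 0.12). Their limma adjusted p ran from 0.703 to 0.740, and Gla read below the median probe set.

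Of 24 membrane and proton pump genes 20 were positive (46.2% of all genes), with a median of 0.09. The 4 with the smallest p were all subunits of the proton pump that acidifies the lysosome: Atp6v1c1 (0.22 ± 0.09), Atp6v0e (0.17 ± 0.09), Atp6v1d (0.15 ± 0.10) and Atp6v1a (0.13 ± 0.09). Only Atp6v1c1 had an unadjusted p under 0.05, and its limma adjusted p was 0.740. Of 16 genes for sorting enzymes to lysosomes or for their transcription, 11 were positive, with a median of 0.03 and none at an unadjusted p under 0.05. Of 14 other cathepsins and inhibitors, 9 were positive, with a median of 0.05, and none had an unadjusted p under 0.05.

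Together, 73 genes of the 3 lysosomal lists were measured, and none passed limma's adjusted p of 0.05. At an unadjusted p under 0.05, 5 were higher, which is 6.85% of them against 2.94% of all genes, and 1 was lower (3.70% of all genes). This count depended on single arrays. Without Prox1-OE replicate 1, 0 hydrolases, 0 membrane and proton pump genes and 1 sorting or transcription gene were higher, and 0 were lower. Without Prox1-OE replicate 3, 1 hydrolase, 0 membrane and proton pump genes and 0 sorting or transcription genes were higher. In that fit 1 hydrolase and 1 sorting or transcription gene were lower. The median difference of the 73 genes was 0.04 with all arrays.

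**Figure D3:**
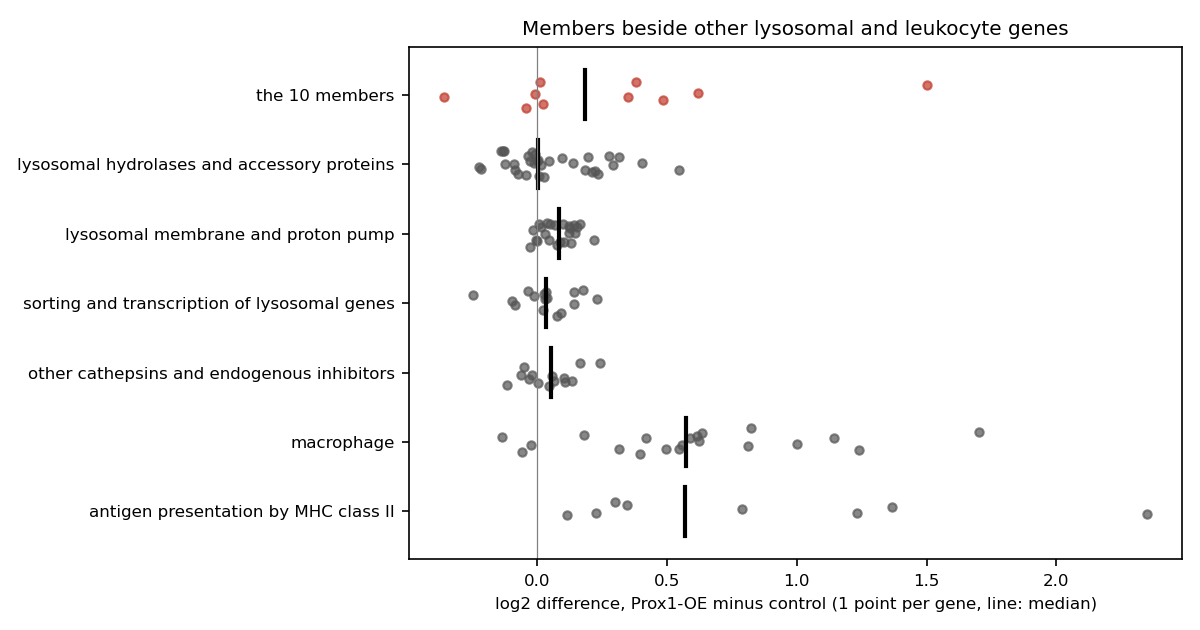
Log2 difference, Prox1-OE minus control, of each gene in the lists, 1 point per gene, with the median as a line. The members (median 0.19) spread from Ctsl at -0.36 to Ctss at 1.50, the lysosomal lists centre between 0.01 and 0.09, and macrophage and MHC class II genes centre at 0.57, or at 0.41 and 0.26 without Prox1-OE replicate 1.

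Markers of several leukocytes were also higher on average in Prox1-OE, and Prox1-OE replicate 1 had the highest mean of each such list. Of 20 macrophage genes, 17 were positive, none passed over all genes, and 12 were higher at an unadjusted p under 0.05 (2.94% of all genes). Without Prox1-OE replicate 1 the number was 9, and the median went from 0.57 to 0.41. The number was 14 without Prox1-OE replicate 2, 8 without control replicate 2, and 7 without control replicate 3, where 1 was lower. The list's mean log2 level was 6.07 to 6.83 in Prox1-OE and 5.65 to 5.86 in control, and 2 of the 20 read below the median probe set. Over control it was 1.06, 0.30 and 0.43 on Prox1-OE replicates 1, 2 and 3. On the same arrays Ctss was 2.42, 0.80 and 1.29 over control, and Lgmn 1.05, 0.28 and 0.54. The genes with the smallest p were C1qc, of complement C1q (0.59 ± 0.13), and the antibody receptor Fcgr3 (0.56 ± 0.13). Next were the lysosomal glycoprotein Cd68 (0.62 ± 0.15) and the integrin Itgam (0.42 ± 0.11), which was dim at percentile 15.0. Without Prox1-OE replicate 1 these genes differed by 0.48, 0.48, 0.44 and 0.40. The 3 negative genes were C1qa (-0.13), also of C1q and bright at percentile 90.8, Fcgr1 (-0.06) and Cx3cr1 (-0.02).

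All 8 measured MHC class II genes were positive, and 3 were higher at an unadjusted p under 0.05 (2.94% of all genes). That number was 3 without Prox1-OE replicate 1, 6 without Prox1-OE replicate 2, and 1 without control replicate 2 or control replicate 3. The median difference of these genes, 0.57, was 0.26 without Prox1-OE replicate 1, 0.86 without Prox1-OE replicate 2 and 1.23 after the filter on dim genes. Their mean over control was 1.68, 0.17 and 0.67 on Prox1-OE replicates 1, 2 and 3. The class II chains H2-Aa, H2-Eb1 and H2-Ab1 differed by 2.35 ± 0.72, 1.37 ± 0.52 and 1.23 ± 0.49, and Cd74, the invariant chain that cathepsin S cleaves, by 0.79 ± 0.35 (limma adjusted p from 0.690 to 0.753). Without Prox1-OE replicate 1 these were 1.52 ± 0.50, 0.68 ± 0.23, 0.59 ± 0.23 and 0.35 ± 0.21. The mean level of the class II list was 5.19 to 6.70 in Prox1-OE and 4.86 to 5.19 in control, and Prox1-OE replicate 2 lay just under control replicate 1.

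B cell markers had a mean level of 4.27 to 5.21 in Prox1-OE and 4.09 to 4.15 in control, with 7 of 10 positive and 7 of 10 below the median probe set. Ms4a1, of CD20, and Ighm, of the IgM heavy chain, differed by 2.26 ± 0.62 and 1.44 ± 0.48 (limma adjusted p = 0.690 for both). Fcrla and Cd22, also B cell genes, differed by 0.30 ± 0.14 and 0.79 ± 0.38. The 3 negative genes of the list were Pax5 (-0.10), Cd79a (-0.07) and Blk (-0.01). Without Prox1-OE replicate 1 the B cell median went from 0.20 to 0.10, with Ms4a1 at 1.52 ± 0.39, Ighm at 0.82 ± 0.23, Fcrla at 0.16 ± 0.12 and Cd22 at 0.28 ± 0.17. With the filter on dim genes the median was 1.44. The T and NK cell list was 0.50, -0.10 and 0.20 over control on the Prox1-OE arrays. Of its 10 genes, 7 were positive, 6 read below the median probe set and 1 was higher at an unadjusted p under 0.05, Nkg7, of cytotoxic cells, which was dim at percentile 35.2 (0.42 ± 0.11). The 3 negative genes of the list were the T cell genes Cd3e (-0.27), Cd8a (-0.07) and Cd4 (-0.03). Other T cell genes were positive: Cd3d (0.71 ± 0.41), Cd3g (0.35 ± 0.38), Cd5 (0.23 ± 0.14) and Cd2 (0.17 ± 0.12). The list had a median of 0.21, which went to 0.08 without Prox1-OE replicate 1 and to -0.05 after the filter on dim genes. All 12 fibroblast and matrix genes were positive, with a mean of 0.58, 0.08 and 0.13 over control, and 2 were higher at an unadjusted p under 0.05, Vim (vimentin, 0.32 ± 0.11) and Fn1 (fibronectin, 0.42 ± 0.17). Without Prox1-OE replicate 1 the number was 0, and their median went from 0.24 to 0.14. Without control replicate 2 the number was also 0, with a median of 0.21. Of 12 neutrophil and mast cell genes 6 were positive, and none had an unadjusted p under 0.05.

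**Figure D4:**
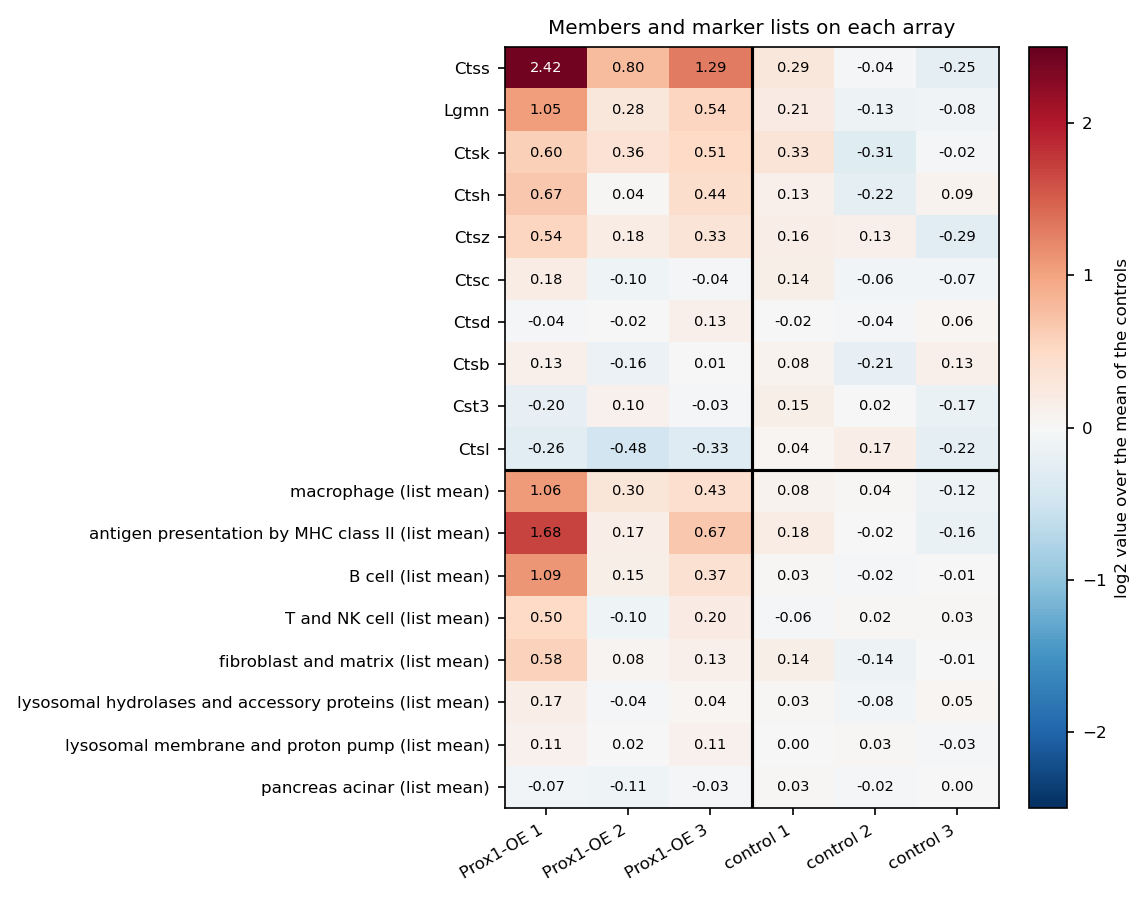
Log2 value over the mean of the controls for the 10 genes and for the means of marker lists, on each of the 6 arrays, with the value printed in each cell. Ctss (2.42) and the macrophage (1.06), MHC class II (1.68) and B cell (1.09) lists are highest on Prox1-OE replicate 1, and Ctsl is negative on all Prox1-OE arrays.

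The differences of the members were also fitted with the mean of a marker list as a covariate. With the B cell list, Ctss differed by 0.58 ± 0.18, Lgmn by 0.18 ± 0.15, Ctsh by 0.06 ± 0.18, Ctsz by 0.15 ± 0.18 and Ctsk by 0.35 ± 0.22. With the macrophage list, a fit added after the data were seen, Ctss differed by 0.29 ± 0.17, Lgmn by 0.06 ± 0.17, Ctsh by 0.01 ± 0.22, Ctsz by 0.03 ± 0.19 and Ctsk by 0.31 ± 0.25. Ctsl did not shrink: it differed by -0.46 ± 0.17 with the B cell list and by -0.54 ± 0.18 with the macrophage list. No member passed limma's adjusted p of 0.05 in either fit. At an unadjusted p under 0.05, 1 member was higher with the B cell list, and 0 with the macrophage list. The lists themselves were higher in Prox1-OE, so these fits cannot tell the covariate and the genotype apart where both move together.

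**Figure D5:**
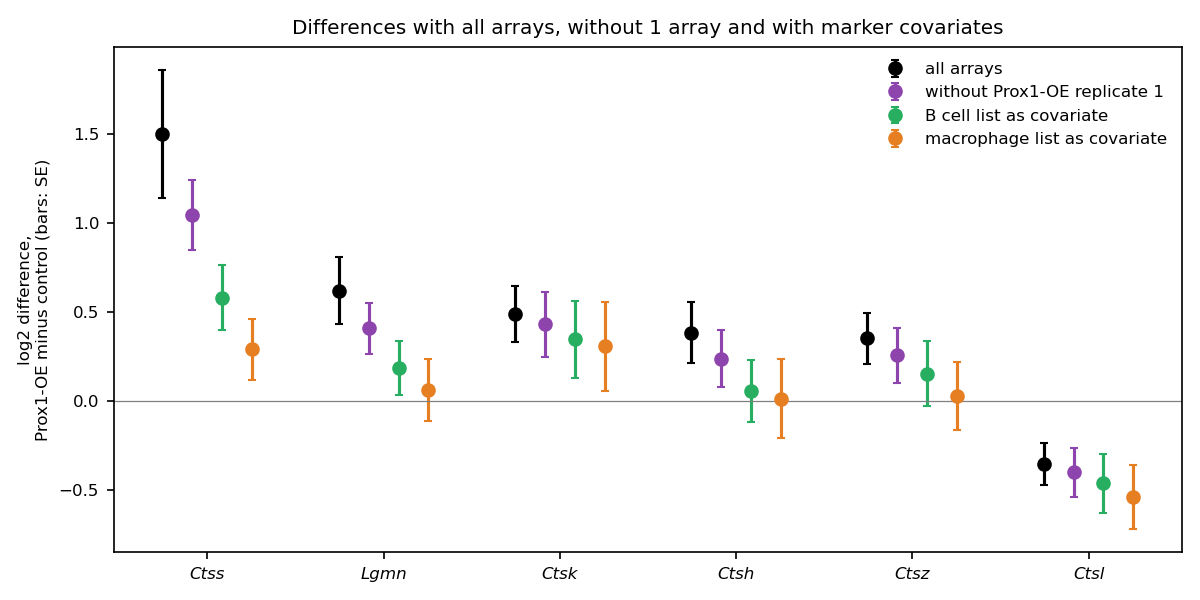
Log2 difference, Prox1-OE minus control, ± SE for 6 genes with all arrays, with Prox1-OE replicate 1 left out, and with the mean of B cell or macrophage markers as a covariate. Ctss goes from 1.50 to 1.04, 0.58 and 0.29, and Ctsl stays negative, from -0.36 to -0.40, -0.46 and -0.54.

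The genes outside the group nearest to Ctss were sought by the root mean square difference of log2 values over the 6 arrays, each centred on the controls. They were Cd53 (0.19), a tetraspanin of leukocytes, Ms4a6b (0.21), Cd48 (0.27), a surface protein of leukocytes, H2-Eb1 (0.28) and Laptm5 (0.28), a lysosomal membrane protein of blood cells. Cd53 was 2.58, 0.53 and 1.23 over control on Prox1-OE replicates 1, 2 and 3, where Ctss was 2.42, 0.80 and 1.29. These genes were picked for being near Ctss, so their nearness is no further result. The genes nearest to Ctsb by the same measure were Marchf9, Baat, Agap2, 1700012I11Rik and Anapc15, at 0.02 to 0.04. They varied as little as Ctsb did, with differences between the groups from -0.03 to 0.01.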

How the data were processed

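Biotinylated cRNA from 100 ng of total RNA of each pancreas sample was hybridised to an Affymetrix 3' array, per the labels. The deposited table holds the authors' log2 value of each probe set. The submitters' processing notes list RMA and Partek 6.5, without settings. RMA quantile-normalizes the arrays and compresses differences of dim probe sets, so a change in total RNA per cell cannot be seen. The genome build of the array design is not given in the sources used here.

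Of 45101 probe sets, 64 controls were left out, and 34945 of the others had 1 gene symbol in the platform annotation. These measured 18193 genes, each represented by its brightest probe set. Prox1-OE was set against control in limma 3.58.1 (R 4.3.3; lmFit, then eBayes), unfiltered, with Benjamini-Hochberg adjustment at 0.05, first over all genes and then over all probe sets. All p-values are two-sided, and intervals are 95% limma intervals. The fit was tested on simulated data.

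The 10 members and 13 gene lists were chosen with earlier results of these data known. The genes named were the members, up to 4 genes of each list with the smallest p, and the 5 genes nearest in pattern to Ctss and to Ctsb. Genes with a negative difference were also named for the macrophage, B cell and T and NK cell lists. For the T and NK cell list, Cd2, Cd3d, Cd3g and Cd5 were named beside them. For lists without a p under 0.05, counts alone are given. Motifs were chosen with the promoter sequences in view. Alternatives were other probe set rules, scalings, variance models and covariates, a filter on dim genes, the replicate block and leaving out each array. The macrophage covariate was added after seeing the data.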

Additional observations from a re-analysis of the deposited data

How the results depend on the processing

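In every alternative run, 0 members and 0 member probe sets passed limma's adjusted p of 0.05, and the differences of Ctss, Lgmn, Ctsk, Ctsh and Ctsz kept a positive sign and that of Ctsl a negative one, though Ctsh, Ctsz and Lgmn lay near 0 with the macrophage covariate (0.01, 0.03 and 0.06). Members higher at an unadjusted p under 0.05 numbered 1 with the B cell covariate and 0 with the macrophage covariate, and 3 to 5 without any one array. Those lower numbered 0 to 1 without any one array. Differences near 0 changed sign. For Ctsb it was 0.0394 with the mean of its probe sets, 0.0113 with median centring and 0.00935 with array weights. For Ctsc it was -0.00686 with quantile normalization again, -0.0087 with array weights, -0.16 with the B cell and -0.22 with the macrophage covariate. For Ctsd it was -0.00364 with quantile normalization again, and for Cst3 0.11 and 0.10 with the B cell and macrophage covariates. Probe set 1417491_at of Ctsb gave 0.00476 with median centring. Without any one array, Ctsb ran from -0.114 to 0.0672, Ctsc from -0.0701 to 0.0821, Ctsd from -0.0295 to 0.0549 and Cst3 from -0.124 to 0.0383. Probe sets 1417491_at, 1437939_s_at and 1444987_at ran from -0.0597 to 0.0254, from -0.0211 to 0.26 and from -0.352 to 0.00839. The cause was not tested. The contrasts of Ctss with Ctsb, Ctsd and Ctsl kept their sign, from 0.989 to 2.15 without any one array. Samples of the same replicate number deviated together at correlations of 0.04, 0.14 and 0.11. These were low, but each was best with its own number. The labels name no pairs, so the main fit did not pair the numbers, and a fit with the replicate block was run beside it. With the replicate block 5 members were higher and 1 lower at an unadjusted p under 0.05. None passed over all genes, where 2 genes in all passed against 5 without it. The block narrowed the errors of Ctss (1.50 ± 0.23, limma adjusted p = 0.316), Lgmn (0.62 ± 0.11) and Ctsh (0.38 ± 0.1). It did not narrow that of Ctsl (-0.36 ± 0.125). Over all genes, 0 passed with either covariate and 0 to 4 without any one array (0 without Prox1-OE replicate 1 or Prox1-OE replicate 3). Chga passed only without Prox1-OE replicate 2 or control replicate 3 among these 6. The filter on dim genes kept all 10 members. With 3 arrays a group, the number of arrays limits every value.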
